A study of Homo sapiens with 3 samples.

Results

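The genes of the clock activator, CLOCK and BMAL1 (listed as ARNTL in older annotations), and of their paralogues NPAS2 and BMAL2 (ARNTL2) were examined for recruitment of BMAL1 and MAX. A summit, the highest point of a listed peak, was assigned to a gene when it lay in the gene body or within 50 kb of any of its annotated transcription start sites (TSSs). All 4 genes were found among the 20098 protein-coding genes of GENCODE release 44 on chromosomes 1 to 22 and X of hg19. By this rule 0 of the 756 BMAL1 peaks and 7 of the 13650 MAX peaks belonged to these genes. BMAL1 and MAX were immunoprecipitated from cross-linked MDA-MB-231 cells, an established human triple-negative breast cancer line grown in serum. Input chromatin of the same line served as the control. Each antibody and the input were represented by 1 library, from 13866783 tags for BMAL1, 11545865 for MAX and 29308882 for input. No circadian synchronisation or time point is given for these libraries, so they describe a culture average. Nothing here has a replicate check, and no difference between the antibodies was tested.

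CLOCK and BMAL1 are transcription factors with a basic helix-loop-helix DNA-binding domain and PAS domains. As a heterodimer they bind E-boxes and activate their own repressors, the PER and CRY genes. NPAS2 can take the place of CLOCK in this dimer, and BMAL2 that of BMAL1. The BMAL1 gene is best known as a target of a second loop, in which ROR receptors activate and REV-ERB receptors (NR1D1 and NR1D2) repress it through ROR elements near its start. MAX is the obligate partner of MYC and of the MXD and MNT repressors, and its dimers also bind E-boxes.

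No BMAL1 peak was listed at any of the 4 activator genes, and MAX peaks were listed at 3 of them, with no summit closer than 971 bp to a TSS of the activator genes themselves. NPAS2 had 5 MAX summits, CLOCK and BMAL1 had 1 each, and BMAL2 had 0. Over all protein-coding genes the same rule gave a BMAL1 summit at 8.43% and a MAX summit at 66.5%. The 4 windows, which measured 142454 to 274305 bp, were longer than those of many genes. Among the 4141 protein-coding genes with windows in this range, a background chosen after the data were seen, 7.27% had a BMAL1 summit and 70.0% a MAX summit. The absence of BMAL1 peaks and the presence of MAX peaks at 3 of 4 genes were each what most genes showed. CLOCK, NPAS2 and BMAL1 shared the combination of MAX without BMAL1 with 58.2% of protein-coding genes (11699), and BMAL2 shared the lack of both with 33.4% (6705). CLOCK had this combination only through a summit 32336 bp beyond its end, assigned through an internal noncoding TSS.

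The sequences around these summits show the letters within 50 bases of a summit, not over the whole peak. The reference sequence of hg19 (plus strand) is given for the MAX peak upstream of NPAS2 and for that in an intron of BMAL1, because they are the only peaks upstream of or inside these genes with any of the searched letters at the summit. The windows run 50 bases to either side of the summit, and capitals mark the ROR element letters TAGGTCA or TGGGTCA, searched on both strands. No E-box (CACGTG) or E'-box (CACGTT, or AACGTG on the opposite strand) lies in either window. The NPAS2 peak does hold an E-box outside the window shown, 139 bp from its summit.
NPAS2 upstream, chr2:101435580-101435680: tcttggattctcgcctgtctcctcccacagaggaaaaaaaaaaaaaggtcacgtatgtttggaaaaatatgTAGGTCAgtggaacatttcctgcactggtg
BMAL1 intron, chr11:13355298-13355398: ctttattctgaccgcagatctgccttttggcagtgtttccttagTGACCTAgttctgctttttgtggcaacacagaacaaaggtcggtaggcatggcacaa

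**Figure D1:**
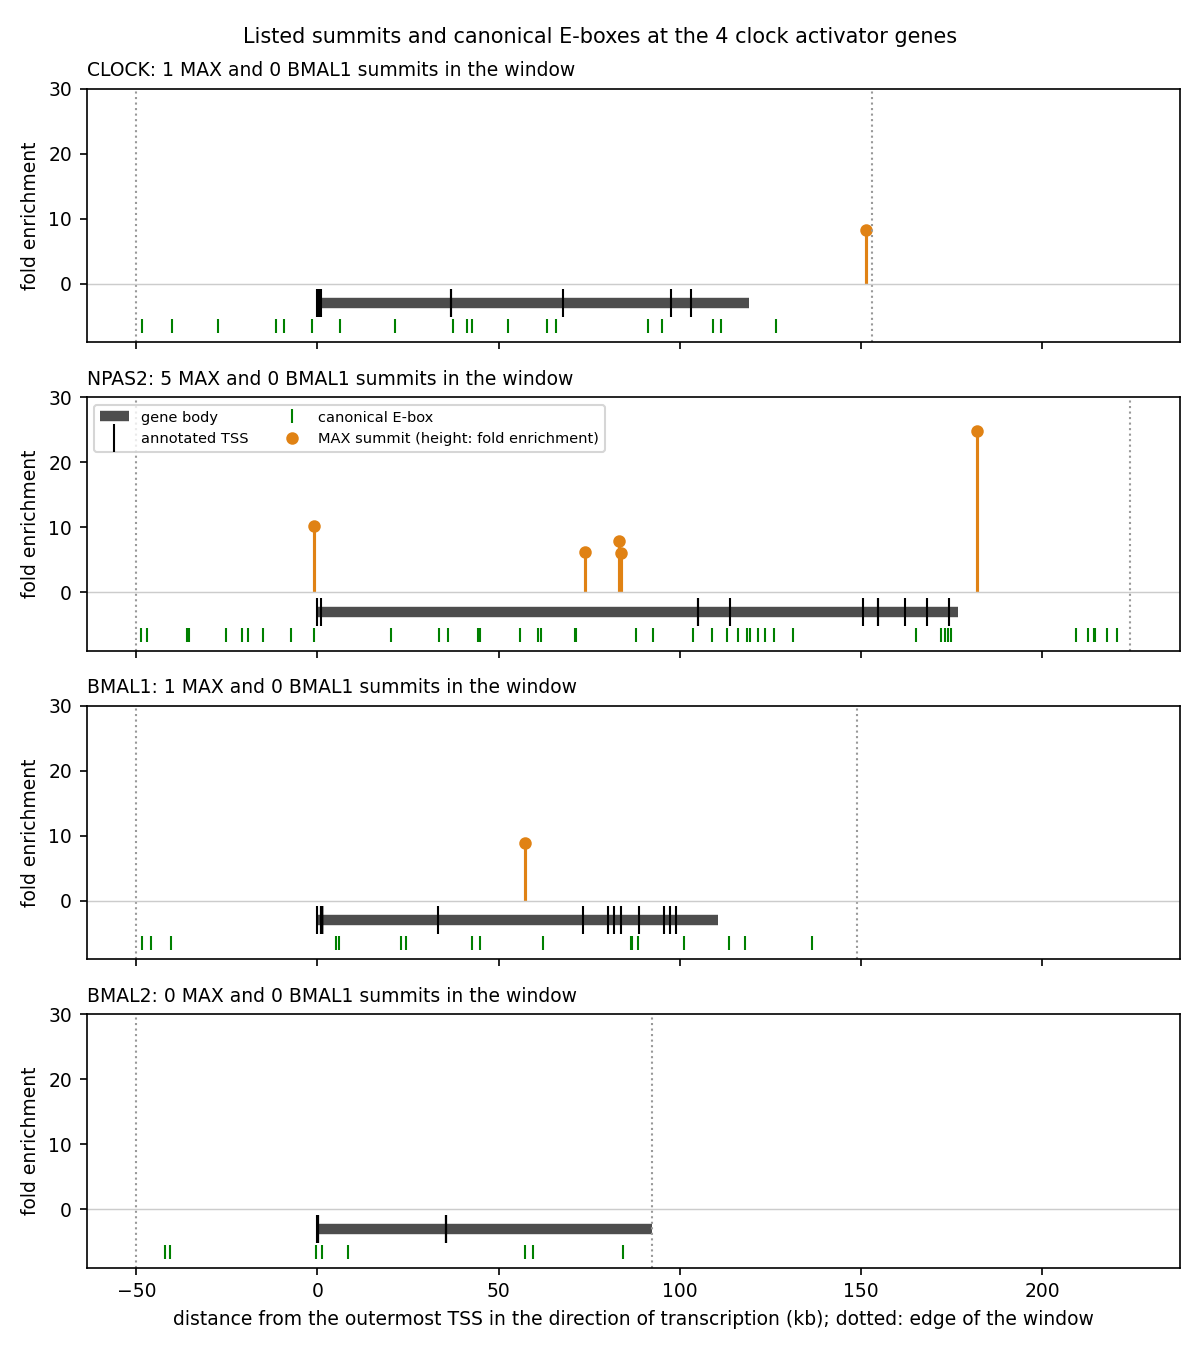
Listed summits along the 4 clock activator genes, with distance from the outermost TSS in kb on the horizontal axis and fold enrichment over input on the vertical axis. Orange points are MAX summits, bars below 0 show the gene bodies with annotated TSSs as black ticks, green ticks are canonical E-boxes and dotted lines the edges of the windows. The 5 MAX summits at NPAS2, the 1 at CLOCK and the 1 at BMAL1 are shown at their fold enrichments of 6.04 to 24.8, and no BMAL1 summit falls in any window.

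CLOCK lies on chr4:56294070-56413076 and is transcribed from the minus strand, with 11 annotated TSSs. Its nearest BMAL1 summit was 889470 bp from a TSS, and 50.6% of protein-coding genes were as far or farther from one. That peak (chr4:57302399-57302819) had a pileup of 34 fragments at the summit (exact Poisson 95% interval 23.5 to 47.5) and a fold enrichment of 12, and lay in an intron, 120 bp downstream of a TSS of PAICS, an enzyme of purine synthesis. The only MAX summit in the CLOCK window had a fold enrichment of 8.25 and a pileup of 13 fragments (interval 6.92 to 22.2). It entered the window through the start of a noncoding transcript inside CLOCK, 48188 bp away, and lay 32336 bp beyond the gene's end. Its peak (chr4:56261572-56262121) was intronic in the noncoding gene SRD5A3-AS1 and 390 bp upstream of a TSS of TMEM165, a Golgi membrane protein. Measured from the start of CLOCK itself, the outermost TSS, the nearest MAX summit was 151342 bp away, so neither factor had a peak in the CLOCK gene body or upstream of it within 50 kb.

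NPAS2 lies on chr2:101436601-101613291 on the plus strand, also with 11 TSSs. Its nearest BMAL1 summit was the most distant of the 4 genes, 1665100 bp upstream, at a weak peak (chr2:99771317-99771630, fold enrichment 8.49, pileup 17) whose summit lay 36 bp upstream of a TSS of LIPT1, a lipoyltransferase. In contrast, it held most of the MAX summits. The first MAX peak (chr2:101435397-101435829) lay upstream of the gene with its summit 971 bp from the outermost TSS, and had a fold enrichment of 10.2 and a pileup of 16 fragments (interval 9.15 to 26.0). By fold enrichment this peak was above 54.8% of MAX peaks, hence near the middle of the list, but by pileup above 29.4%. It was the closest MAX peak to a TSS of any of the 4 genes, and 63.7% of protein-coding genes were as far or farther from one.

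The next 3 MAX peaks of NPAS2 lay within an intron, more than 20 kb from any of its TSSs. The peak at chr2:101510345-101510674 had a fold enrichment of 6.15, that at chr2:101519489-101519794 had 7.96, and that at chr2:101520235-101520550 had 6.04. Their pileups were 16, 16 and 15 fragments, against 16 at the upstream peak, over an estimated local background of 2.6, 2.01 and 2.48 against 1.58 there. By fold enrichment these intronic peaks ranked above 7.0%, 26.0% and 6.4% of the MAX list, so they were among its weaker entries by that measure. By pileup they ranked above 29.4%, 29.4% and 21.3%, against 29.4% for the upstream peak. The local background at the 7 MAX summits ranged from 1.23 to 2.03 times the genome-wide expectation, with a median of 1.46 over the MAX list. Fold enrichment is the pileup divided by this background, so at an equal pileup it falls as the background rises. Why the background differed between sites was not tested.

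The strongest MAX peak in the NPAS2 window was at the start of another gene. It spanned chr2:101618318-101619202, 5272 bp beyond the end of NPAS2, with a fold enrichment of 24.8 and a pileup of 41 fragments (interval 29.4 to 55.6). Its fold enrichment was above 98.6% of MAX peaks. Its summit lay 128 bp upstream of a TSS of RPL31, a protein of the large ribosomal subunit. The nearest NPAS2 TSS, an internal one close to the end of the gene, was 7658 bp away. Without the summits closest to TMEM165 and RPL31, 5 MAX summits remained at the activator genes, at NPAS2 and BMAL1, with a median fold enrichment of 7.96, against 8.25 for all 7 and 9.73 for the whole list. Only 2 of the 7 summits exceeded the median of the list.

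BMAL1 lies on chr11:13298199-13408813 on the plus strand, with 23 TSSs, most of them clustered near its start. The nearest BMAL1 summit was 1166271 bp upstream of the outermost TSS, and 44.3% of protein-coding genes were as far or farther from one. This peak (chr11:12131795-12132167) had a fold enrichment of 14.4 and a pileup of 41, and lay 209 bp upstream of a TSS of MICAL2, an actin-oxidising enzyme. The gene's only MAX peak (chr11:13355103-13355485) was intronic, with a fold enrichment of 8.96 and a pileup of 18 fragments (interval 10.7 to 28.4). Its fold enrichment was above 39.4% of MAX peaks. Its summit was 57149 bp downstream of the outermost TSS and 16144 bp upstream of the start of an internal noncoding transcript. Thus the promoter of BMAL1 carried no listed peak of either factor. The authors include this promoter among the clock gene regions they display for MAX and BMAL1 enrichment. That signal was not analysed here. The next MAX summit, 86962 bp from an internal TSS and outside the window, was in an exon of BTBD10.

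BMAL2 lies on chr12:27485769-27578222 on the plus strand, with 7 TSSs, and was the only one of the 4 genes without a summit of either factor. It had the nearest BMAL1 summit of the group, 641100 bp upstream (chr12:26844447-26844936, fold enrichment 16.2, pileup 25), in an intron of the IP3 receptor gene ITPR2. Its nearest MAX summit was 155615 bp from an internal TSS, in a peak (chr12:27676446-27676917) with a fold enrichment of 6.09 and a pileup of 12, 191 bp upstream of a TSS of PPFIBP1, a liprin family gene. Only 17.4% of protein-coding genes were as far or farther from a MAX summit. The corresponding shares were 34.6% for CLOCK and 49.0% for BMAL1, which places the activator genes in the order NPAS2, BMAL1, CLOCK and BMAL2 by distance to MAX. Within the rule, the CLOCK summit at 48188 bp was the closest to the 50 kb limit.

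At the promoters, defined as 300 bp to either side of any TSS, 0 of the 4 genes had a peak of either factor with at least 1 bp in the window. Over all protein-coding genes 1.64% had a BMAL1 peak and 33.8% a MAX peak in this region. When the region was widened to 1 kb on either side, NPAS2 alone of the 4 genes had a MAX peak, and none had a BMAL1 peak, against 37.1% and 1.96% of protein-coding genes.

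The nearest BMAL1 summit was 1040812 to 1847062 bp from the 7 MAX summits. The 4 BMAL1 peaks nearest to the activator genes all overlapped a MAX peak, with a MAX summit 13 to 68 bp away, and 84.1% of the BMAL1 list did so. The summit of 3 of these 4 lay within 300 bp of a TSS of another gene.

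**Figure D2:**
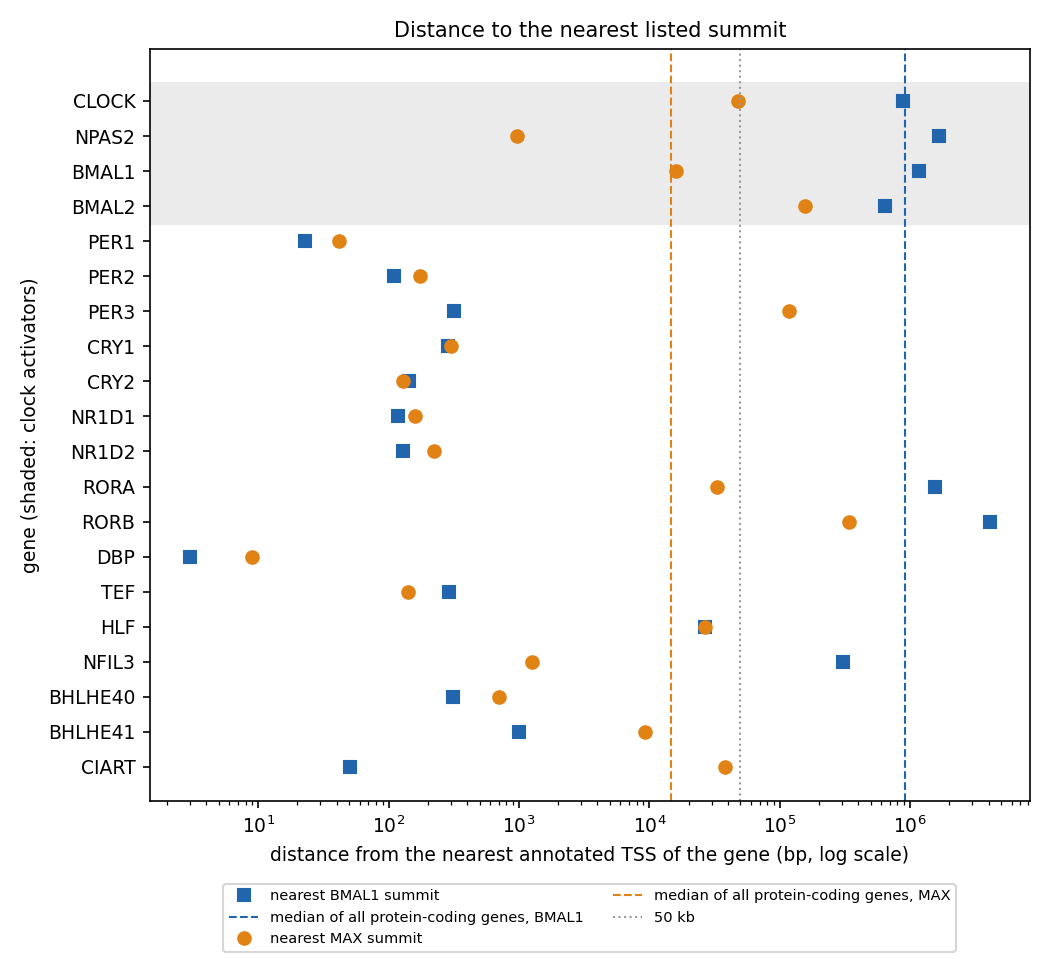
Distance from the nearest annotated TSS of each gene to the nearest listed summit, in bp on a log scale, for BMAL1 (blue squares) and MAX (orange circles). The dashed lines are the medians over all protein-coding genes, and the shaded rows are the clock activators. The 4 activators sit at 641100 to 1665100 bp from a BMAL1 summit, on both sides of the median of all genes, whereas the PER and CRY genes lie within 319 bp of one.

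The other clock genes were examined by the same rule. They were taken from textbook clock components, with earlier results of these data known. A BMAL1 summit was assigned to 13 of the 16 genes and a MAX summit to 14, with 24 BMAL1 and 55 MAX summits in all. Over all protein-coding genes the shares were 8.43% for BMAL1 and 66.5% for MAX. With 1 library per antibody, the difference from the activators was not tested. The counts include summits that may be closest to a neighbouring gene. All 5 PER and CRY repressor genes had a BMAL1 summit, 23 bp (PER1) to 319 bp (PER3) from a TSS, and all but PER3 had a MAX summit. Of the receptor genes acting on BMAL1, NR1D1 and NR1D2 had a BMAL1 summit, and RORA and RORB had none, with their nearest BMAL1 summits 1541610 and 4083251 bp away, in the range of the activators or beyond. Among the output bZIP factors, DBP, TEF and HLF had BMAL1 summits, and NFIL3 had a MAX summit 1262 bp from a TSS and its nearest BMAL1 summit 305574 bp away. BHLHE40, BHLHE41 and CIART, which repress CLOCK and BMAL1 activity, each had summits of both factors. Their nearest MAX summits were 703, 9200 and 37995 bp from a TSS.

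At most of these genes the BMAL1 peak was among the strongest of its list. The highest BMAL1 fold enrichment at each of the 13 genes had a median of 56.4, from 13 at PER3 to 127 at NR1D1, and exceeded 97% of the list at 10 of them. The BMAL1 peaks nearest to the activator genes had fold enrichments of 8.49 (NPAS2), 12 (CLOCK), 14.4 (BMAL1) and 16.2 (BMAL2). They ranked above 32.4%, 63.5%, 74.9% and 80.6% of the list. The highest BMAL1 peaks of PER3 and BHLHE40 were in the same range, but lay in the windows of those genes. Those nearest to the activator genes were 641100 to 1665100 bp away, outside the activator windows.

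**Figure D3:**
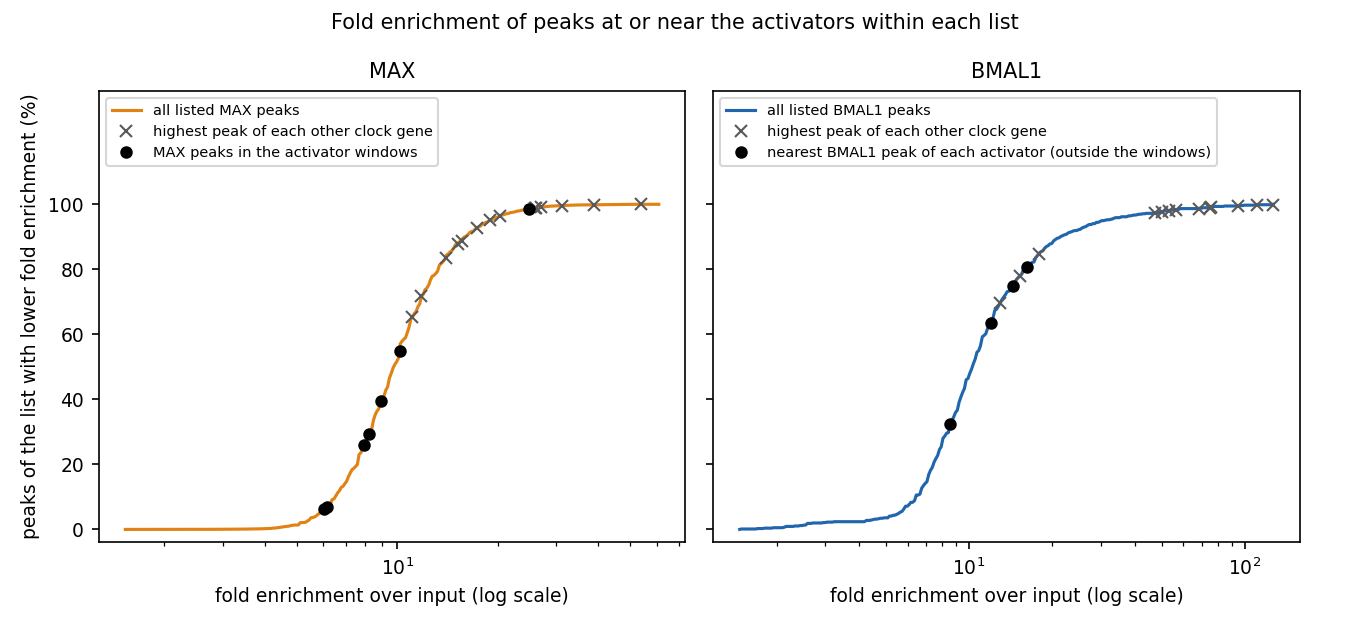
Fold enrichment over input on a log scale against the percentage of peaks of the same list with a lower value, for MAX (left) and BMAL1 (right). Lines show all listed peaks, crosses the highest peak of each other clock gene, and black points the 7 MAX peaks in the activator windows or the nearest BMAL1 peak of each activator. Of the 7 MAX peaks 6 lie between 6.04 and 10.2, and the peak at 24.8 is that upstream of RPL31.

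E-boxes were present in all 4 windows, almost all of them outside the listed peaks. The windows of the 4 genes held 87 canonical E-boxes, 43 at NPAS2, 19 at CLOCK, 17 at BMAL1 and 8 at BMAL2. None lay inside a BMAL1 peak, which allows a share of up to 3.45% by the limit of 3 counts or 4.23% by the Wilson 95% interval (both for counting error only), and 1 lay inside a MAX peak (1.15%, Wilson 95% interval 0.203% to 6.23%). Over the windows of all protein-coding genes, 0.419% of 189939 E-boxes lay in a BMAL1 peak and 2.34% in a MAX peak, so both counts were close to this background. In the windows of the PER and CRY genes, 8 of 105 E-boxes lay in a BMAL1 peak (7.62%, interval 3.91% to 14.3%) and 9 in a MAX peak (8.57%). None of the 102 E'-boxes in the activator windows lay in a peak of either factor, against 0.0541% in a BMAL1 peak and 0.748% in a MAX peak over the windows of all protein-coding genes.

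**Figure D4:**
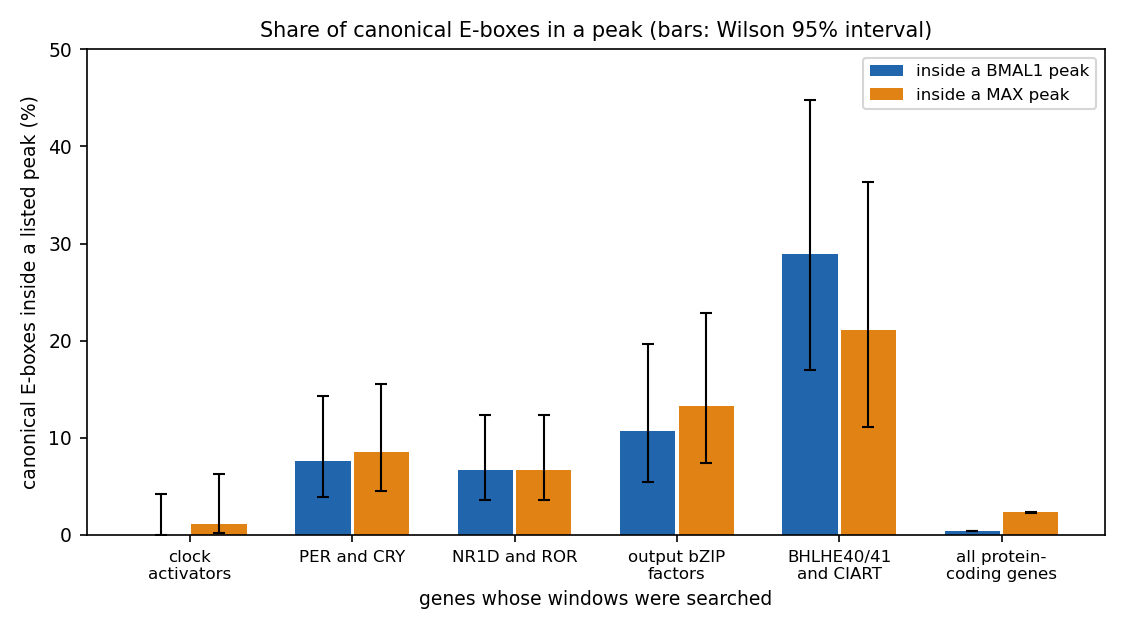
Percentage of canonical E-boxes that lie inside a listed BMAL1 (blue) or MAX (orange) peak, in the windows of the clock activators, of 4 groups of other clock genes and of all protein-coding genes, with Wilson 95% intervals as error bars. The activators show 0 of 87 for BMAL1 and 1 of 87 for MAX, and their Wilson intervals reach up to 4.23% and 6.23%.

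Of the 7 MAX peaks, 1 (14.3%) held CACGTG, compared with 29.8% of the MAX list. This was the peak upstream of NPAS2, with its E-box 139 bp from the summit and 832 bp upstream of the TSS. A further 1, the peak at TMEM165, held the noncanonical element CACGCG, searched after the data were seen and present in 23% of MAX peaks. E-boxes, E'-boxes and the noncanonical element were all missing from the remaining 5 peaks, which include that in the BMAL1 intron and the 3 in the NPAS2 intron. To show the listed and the unlisted sites side by side, the elements are given with the flanking bases in the direction of the gene, element in capitals.
NPAS2 E-box inside the MAX peak, chr2:101435754-101435783: agccccacacccCACGTGcccctgccgggg
BMAL2 E-box without a peak, chr12:27485294-27485323: gtgtattctagaCACGTGgccataggatgt
CLOCK E-box without a peak, chr4:56375520-56375549: actaacttgtgaCACGTGaaagttatatga
CLOCK E'-box without a peak, chr4:56412269-56412298: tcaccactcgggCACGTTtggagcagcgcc

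The E-box of BMAL2 lay 460 bp upstream of its outermost TSS, and no listed MAX summit was within 191578 bp of it. The E-box of CLOCK lay 659 bp downstream of an internal TSS, and the E'-box in an intron 185 bp upstream of a TSS that is 977 bp inside the gene. For comparison, the BMAL1 peaks nearest to CLOCK, BMAL1 and BMAL2 held E-boxes, as did 81.7% of the BMAL1 list, and that nearest to NPAS2 held none but had CACGCG 63 bp from its summit. The E-boxes closest to the summits were as follows, on the plus strand. The peak in ITPR2 also held an E'-box, 9 bp from its summit.
PAICS, nearest to CLOCK, 14 bp from the BMAL1 summit, chr4:57302545-57302574: tgagctcgcggcCACGTGcgagccgcgaaa
MICAL2, nearest to BMAL1, 76 bp from the BMAL1 summit, chr11:12131989-12132018: cgggctacagccCACGTGcgccggcggcag
ITPR2, nearest to BMAL2, 118 bp from the BMAL1 summit, chr12:26844772-26844801: acgatgtgcatgCACGTGtgtttttgttca

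The starts of the activator genes differed in the elements they held. The 4 genes have 52 distinct TSSs, and CACGTG occurred within 1 kb of 10 of them (4 of 7 at BMAL2, 3 of 11 at NPAS2, 2 of 11 at CLOCK and 1 of 23 at BMAL1), against 28.0% of the 146295 TSSs of all protein-coding genes. Within 300 bp it occurred at 1 of the 52, an internal TSS of BMAL1, against 11.5% of all. E'-boxes occurred within 1 kb of 18 of 23 TSSs at BMAL1, 6 of 11 at CLOCK, 2 of 11 at NPAS2 and 0 of 7 at BMAL2, against 31.4% of all. ROR element letters occurred within 1 kb of 14 TSSs at BMAL1, 7 at CLOCK, 3 at NPAS2 and 0 at BMAL2, against 32.2% of all. TSSs of a gene share sequence and are not independent. Within 300 bp, ROR element letters occurred at 13 of the 23 BMAL1 TSSs, all through the same element at chr11:13299367-13299373, and at 10.4% of all TSSs. This element is shown because ROR and REV-ERB receptors are the known regulators of BMAL1.
BMAL1 start, chr11:13299355-13299384: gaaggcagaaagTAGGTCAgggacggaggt
The nearest MAX summit was 55981 bp from it, so the start of BMAL1 held ROR element letters and no listed peak.

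The MAX peaks shown first were picked for the ROR element letters at their summits, so these letters are not a separate observation. At NPAS2 their centre was 24 bp from the MAX summit, and in the BMAL1 intron it was 3 bp away. Of the 7 MAX summits, 2 had such letters within 50 bp, compared with 2.17% of all MAX summits and 4.1% of all BMAL1 summits. The letters at summits were noticed after these same sequences were seen, so the comparison is no independent support and was not tested. A match of letters does not show that a receptor binds there.

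An absent peak means only that no site passed the threshold of the peak lists. With tags extended to 300 bp, the expected pileup without enrichment was 1.54 fragments for BMAL1 and 1.28 for MAX, and at this background a pileup of 9 for BMAL1 and 8 for MAX passes the recorded p-value cutoff of 1e-05. The lowest pileups listed were 12 for BMAL1 and 9 for MAX, and the lowest -log10 p-values were 6.34 and 5.01. The weakest BMAL1 peak thus lay further above the recorded cutoff than the weakest MAX peak. A BMAL1 site at the activator genes with fewer than 12 fragments, or over a higher input background, could be missing from the list. Signal below the threshold was not analysed here.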

How the data were processed

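Peak lists from ChIP-seq of MDA-MB-231 cells, 1 for BMAL1 and 1 for MAX, were used as deposited. The authors aligned reads on hg19 with BWA 0.6.2 and called peaks with MACS2 2.0.9, per antibody, against 1 shared input. Per the file headers, the pileup is a signal of extended fragments (300 bp) with the larger library of each ChIP and input pair scaled down, and at most 2 tags (BMAL1) or 1 tag (MAX) were kept per position. The fold enrichment deposited is the ratio of pileup to local input background, and the -log10 p-value and q-value are those of the authors' peak caller. The p-value cutoff is 1e-05 in the headers but 1e-08 in the methods, and no peak was left out.

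Genes and TSSs came from the GRCh37 (hg19) version of GENCODE release 44. Genes and lists were chosen with earlier results of these data known. Named genes were the 4 activators, 16 other clock genes (1 more on the list is not reported here), and the gene holding, or with the nearest protein-coding TSS to, each summit in a window and the next one outside. Intervals and floors cover counting error only. The local background is pileup divided by fold enrichment. Counting was tested on simulated data. Alternatives covered threshold, window, overlap, TSS set and element. Per-base signal was not analysed here. Scripts ran in Python 3.11.15 with pysam 0.24.0 for sequence, scipy 1.17.1 for intervals, numpy 2.4.6, matplotlib 3.10.9 for plots and pandas 2.3.3.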

Additional observations from a re-analysis of the deposited data

How the results depend on the processing

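No BMAL1 summit fell at any of the 4 activator genes under any of the 9 alternatives for threshold, window, overlap and TSS set. The number with a MAX summit was 3 or 2, the latter at -log10 p of at least 12 (51.5% of protein-coding genes), with 10 kb (49.0%), protein-coding transcripts (64.7%), the outermost TSS (64.1%) and gene bodies only (31.6%). At -log10 p of at least 12, 2 MAX summits remained, that in the BMAL1 intron and that at RPL31, and with gene bodies only, a setting added after the data were seen, 4 did. Gene bodies only also left 7 other clock genes with a BMAL1 summit and 8 with a MAX summit, and 2.04% of protein-coding genes with a BMAL1 summit. With 10 kb or 100 kb in place of 50 kb, 3.75% or 13.6% of protein-coding genes had a BMAL1 summit. Distances depended on the TSS set. For MAX they became 114460 bp (CLOCK) and 23077 bp (BMAL1) with protein-coding transcripts, and 151342 bp (CLOCK), 57149 bp (BMAL1) and 191115 bp (BMAL2) with the outermost TSS. At -log10 p of at least 12 the MAX distances were 267645 bp (CLOCK), 7658 bp (NPAS2) and 342505 bp (BMAL2), the last also at 8, and the BMAL1 distance of NPAS2 was 8219264 bp. The share of E-boxes at MAX became 0% when counted within 100 bp of summits. No paired analysis was possible because each antibody has 1 library.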
